A study of Mus musculus with 7 samples.

Results

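Hepatocyte identity transcription factors are the DNA-binding proteins that set and keep the gene programme of the liver's main parenchymal cell. The 9 examined here were chosen by name, with earlier results of these data known: Hnf4a, Foxa1, Foxa2, Foxa3, Cebpa, Cebpb, Onecut1, Onecut2 and Prox1. All 9 were among the 12151 genes of the deposited table, and all 9 passed the filter on low values that left 12105 genes for testing. The study measured RNA of isolated mouse hepatocytes in 7 libraries, 4 labelled ALAS1/2-KO and 3 labelled wild type (WT). ALAS1 and ALAS2 catalyse the first step of heme synthesis. The study's design text describes a conditional allele from which Cre removes exons 4 to 5 of Alas1, and lowering of Alas2 by injected siRNA joined to GalNAc, a sugar that hepatocytes take up. The ALAS1/2-KO libraries carry a tamoxifen treatment label and the WT libraries the label non, so the effects of deletion, siRNA and tamoxifen cannot be told apart. The sources used here do not give the promoter that drives Cre or the strain, age and sex of the mice. They also leave unsaid whether each replicate is its own animal, and the p-values therefore cover only library-to-library spread, part of which may be technical.

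HNF4A is a nuclear receptor that binds DNA as a homodimer and sits at the promoters and enhancers of very many liver genes. FOXA proteins are forkhead factors that open compacted chromatin, C/EBP proteins are leucine-zipper factors that pair with one another, ONECUT proteins carry a cut domain and a homeodomain, and PROX1 is a homeodomain factor needed for mouse liver growth. These factors bind many of the same regulatory regions and sustain one another's transcription, and loss of one from mouse liver can change bile acid, glucose, lipid and plasma protein genes.

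The libraries held 27933939 to 30195635 listed reads in ALAS1/2-KO and 22916097 to 34048680 in WT, and 1 read was worth 0.0293 to 0.0522 CPM (read count scaled to library size, after the authors' scaling). Alas2 was at 0.20 to 0.80 CPM in ALAS1/2-KO against 6.65 to 16.9 CPM in WT and fell by 4.51 on the log2 scale (limma adjusted p = 0.0027). Alas2 is the ALAS gene of red cell precursors, and of 6 markers of those cells 4, all globin genes, were in the table, with a sum of 2.75 to 7.39 CPM in ALAS1/2-KO and 11.3 to 41.3 CPM in WT and 1 called lower; their part in the Alas2 value was not tested. Alas1 was at 287 to 361 CPM in ALAS1/2-KO against 83.5 to 280 CPM in WT (log2 fold change 0.80, limma adjusted p = 0.277; 0.24 without WT replicate 3, and 1.14 with adjusted p = 0.0432 when CPM was rescaled to listed reads). This gene total also takes reads from exons outside the deletion, so it does not check the deletion. Of 10 hepatocyte markers 9 were in the table. Their summed level was 74844 to 81665 CPM in ALAS1/2-KO and 115085 to 120443 CPM in WT. Most of this sum was Alb, the 1 marker that fell, with means of 53409 CPM in ALAS1/2-KO and 97897 CPM in WT. The sum therefore does not stand for the other markers. Ttr, Apoa1, Apob and Serpina1b had higher values in ALAS1/2-KO, with no overlap between the groups. None of these passed the limma adjusted test (adjusted p = 0.0669 to 0.169). Values of Ass1, Cps1, Fah and Tat overlapped. Of 7 cholangiocyte markers 5, Krt19 and Epcam among them, were not in the table. Mitochondrial genes took 16.8 to 27.3% of reads in ALAS1/2-KO and 31.9 to 43.2% in WT. ALAS1/2-KO replicate 1 stood farthest from its own group, by a root-mean-square of 0.676 on the log2 scale over all genes tested, against 0.378 to 0.455 for the other ALAS1/2-KO libraries and 0.308 to 0.387 for WT. Its summed markers of Kupffer cells, endothelial cells and stellate cells were 245, 88.3 and 44.4 CPM, below the other ALAS1/2-KO libraries (736 to 1566, 199 to 382 and 92.6 to 214 CPM) and WT (961 to 1306, 371 to 456 and 193 to 344 CPM); the part of this in the factors' values was not tested.

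Across the 9 factors, Foxa3 was the one that passed the test, and it rose. The count of 1 in 9 stood beside 617 of all 12105 genes tested (5.1%), with 352 higher (2.91%) and 265 lower (2.19%), by limma with Benjamini-Hochberg adjustment over all genes and an adjusted p under 0.05. At an unadjusted p under 0.05 the count was 3 of 9 (Foxa3, Foxa2 and Onecut1), against 23.7% of all genes. The values of the groups did not overlap for 1 of 9 factors, against 22.7% of all genes. In log2 fold change, ALAS1/2-KO over WT, 6 factors lay above 0 and 3 below, and the median of all genes was -0.02. Each of these member shares is a count over few genes, and nothing particular to the factors as a set was read from them. Because whole preparations were sequenced, fewer cells of a type and less RNA per cell cannot be told apart in any value that follows.

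**Figure D1:**
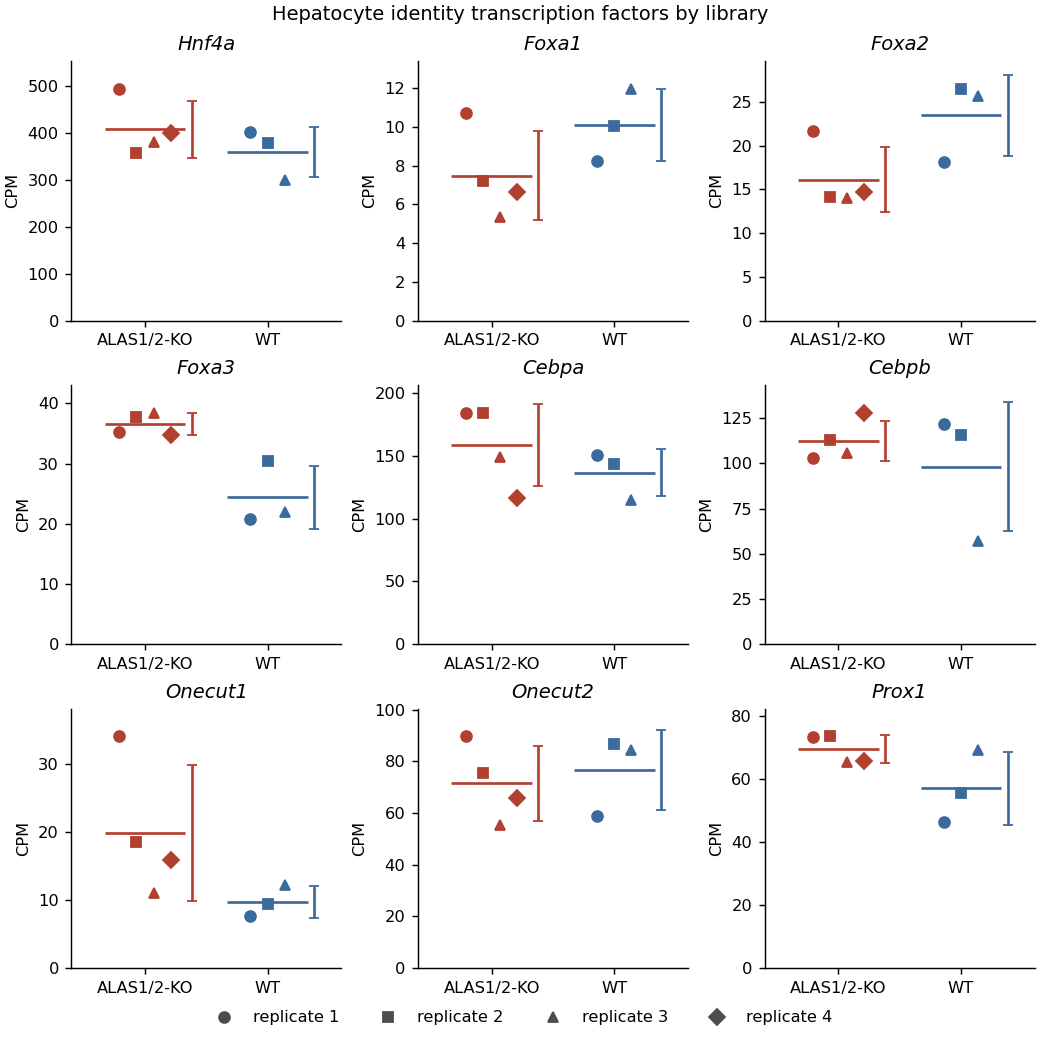
CPM of each of the 9 factors in the 4 ALAS1/2-KO and the 3 WT libraries; points are libraries, bars are group means and error bars SD. Foxa3 is the factor whose groups do not overlap, with ALAS1/2-KO libraries at 34.7 to 38.4 CPM and WT libraries at 20.9 to 30.4 CPM.

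**Figure D2:**
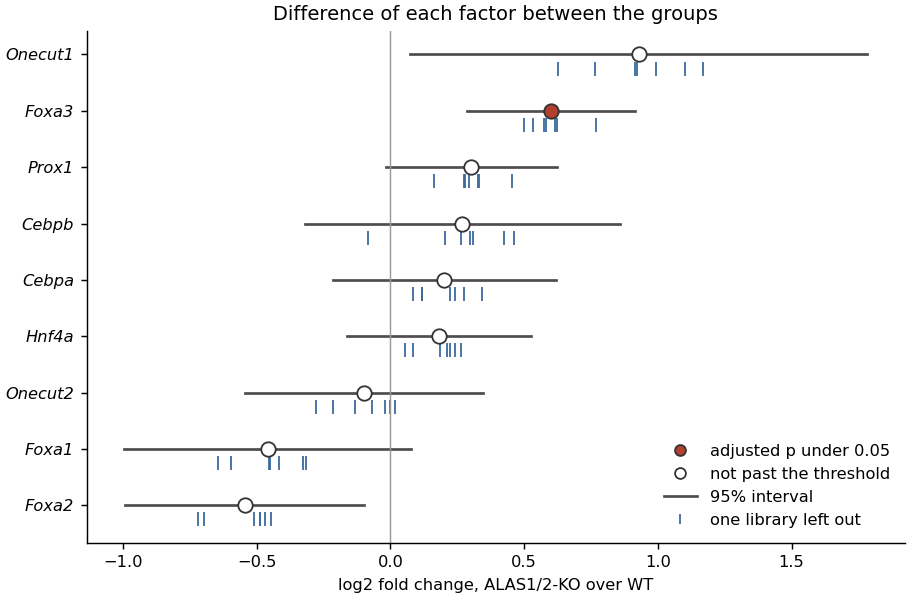
Log2 fold change of each factor, ALAS1/2-KO over WT, with the 95% confidence interval of the limma fit; blue ticks are values with a library left out and the filled point passed the test. The interval of Foxa3 runs from 0.29 to 0.91 and that of Hnf4a from -0.16 to 0.52.

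By mean CPM, without length correction, Hnf4a stood highest of the 9 factors. Per kb of exon its libraries overlapped those of Cebpb in both groups. Hnf4a (ENSMUSG00000017950, chromosome 2, 163506808 to 163572910, plus strand, mm10) had 494, 356, 380 and 400 CPM in ALAS1/2-KO replicates 1 to 4, against 401, 378 and 299 CPM in WT replicates 1 to 3. The groups overlapped, with ALAS1/2-KO replicate 1 above every other library and WT replicate 3 below every other. Means were 407 ± 60.1 CPM in ALAS1/2-KO (SD, n = 4) and 360 ± 53.5 CPM in WT (SD, n = 3). The log2 fold change was 0.18 (SE 0.15, limma adjusted p = 0.504; exact permutation p = 0.429), with a 95% interval of -0.16 to 0.52. Its antisense gene Hnf4aos shares no exon base with it and stood at 0.998 to 2.92 CPM in ALAS1/2-KO and 0.675 to 1.36 CPM in WT (limma adjusted p = 0.205).

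RefSeq (GRCm38.p6) lists 2 Hnf4a start windows, each from 250 bases before to 50 after a start. The downstream window, at chr2:163546905-163547204 on the plus strand, is the start used in adult liver, and transcripts from the upstream start are better known from fetal liver and pancreas. The gene totals do not separate the starts. The downstream window is shown because it holds the HNF1 letters GTTAAT 2 times as their complement ATTAAC (capitals), 81 and 74 bases before the start. These letters, on either strand, are in 7.10% of 32851 RefSeq windows of that length.
Hnf4a downstream promoter: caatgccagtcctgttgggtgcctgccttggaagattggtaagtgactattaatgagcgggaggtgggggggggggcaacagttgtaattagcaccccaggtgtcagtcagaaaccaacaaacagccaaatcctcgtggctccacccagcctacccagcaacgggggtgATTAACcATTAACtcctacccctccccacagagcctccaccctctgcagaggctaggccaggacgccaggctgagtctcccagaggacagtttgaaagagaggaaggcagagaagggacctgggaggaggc
The upstream window, at chr2:163506607-163506906, holds the ONECUT letters ATCAAT 59 bases before the start, letters found on either strand in 7.54% of windows. No member window held the HNF4 letters CAAAGTCCA (0.475% of all windows).

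The FOXA factors differed in direction. Foxa3 rose, while Foxa1 and Foxa2 had lower means that did not pass the test. Foxa3 (ENSMUSG00000040891, chromosome 7, 19013284 to 19023538, minus strand, mm10) takes part in glucose homeostasis in fasted mice and, with its paralogs, in binding of enhancers that hepatocytes use. It had 35.3, 37.7, 38.4 and 34.7 CPM in ALAS1/2-KO replicates 1 to 4, against 20.9, 30.4 and 21.9 CPM in WT replicates 1 to 3. All 4 ALAS1/2-KO libraries lay above all 3 WT libraries, and the WT libraries spread more widely (36.5 ± 1.84 CPM, SD, n = 4, and 24.4 ± 5.22 CPM, SD, n = 3). The log2 fold change was 0.60 (SE 0.14, a ratio of 1.52; limma adjusted p = 0.0443; exact permutation p = 0.0286, the smallest that 35 regroupings allow).

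The Foxa3 call lay close to the threshold. The rise stayed between 0.50 and 0.77 when each library in turn was left out. The limma adjusted p then passed without ALAS1/2-KO replicate 1 (0.0458) and without WT replicate 2 (0.0328), and missed without ALAS1/2-KO replicate 2 (0.0889), 3 (0.0874) or 4 (0.0840) and without WT replicate 1 (0.142) or 3 (0.111). It also missed without the intensity trend (0.0821) and with scaling that leaves out the 20 most abundant and the mitochondrial genes (0.54, adjusted p = 0.0750).

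Foxa2 (ENSMUSG00000037025, chromosome 2, 148042877 to 148046969, minus strand, mm10) is a pioneer factor of foregut endoderm that also limits bile acid load in mouse liver. Its levels were 21.7, 14.1, 14.0 and 14.7 CPM in ALAS1/2-KO replicates 1 to 4, against 18.2, 26.5 and 25.7 CPM in WT replicates 1 to 3. Replicates 2 to 4 of ALAS1/2-KO lay below every WT library, and replicate 1 lay among them. Its log2 fold change was -0.54 (SE 0.20, limma adjusted p = 0.146; exact permutation p = 0.0857). Without ALAS1/2-KO replicate 1 it was -0.70 (limma adjusted p = 0.0341), and with limma's library weights, which gave that library a weight of 0.36, it was -0.71 (adjusted p = 0.0153). Leaving out any other library gave a limma adjusted p of 0.116 to 0.396. With CPM rescaled to listed reads the log2 fold change of Foxa2 was -0.21 (limma adjusted p = 0.505).

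Foxa1 (ENSMUSG00000035451, chromosome 12, 57540628 to 57546916, minus strand, mm10), the paralog that opens liver enhancers together with FOXA2 in the mouse embryo, had the lowest CPM of the family. It had 10.7, 7.20, 5.38 and 6.63 CPM in ALAS1/2-KO replicates 1 to 4, against 8.25, 10.1 and 12 CPM in WT replicates 1 to 3. As with Foxa2, ALAS1/2-KO replicates 2 to 4 lay below every WT library and replicate 1 did not. Its log2 fold change was -0.46 (SE 0.24, limma adjusted p = 0.275; exact permutation p = 0.171), and with library weights -0.63 (adjusted p = 0.0403).

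Paralogs can be set against each other inside a library, where the scaling of the library cancels out. The log2 ratio of Foxa2 to Foxa3 averaged -1.20 ± 0.35 in ALAS1/2-KO (SD, n = 4) and -0.06 ± 0.25 in WT (SD, n = 3), a difference of -1.14 with no overlap (exact permutation p = 0.0571; 0.0952 after Benjamini-Hochberg adjustment over 5 ratios). For Foxa1 to Foxa3 it averaged -2.32 ± 0.46 in ALAS1/2-KO and -1.26 ± 0.36 in WT, a difference of -1.06, again with no overlap (exact permutation p = 0.0571, adjusted 0.0952). The Foxa1 to Foxa2 ratio averaged -1.12 ± 0.18 in ALAS1/2-KO and -1.21 ± 0.16 in WT, and the groups overlapped (difference 0.09, exact permutation p = 0.514). Leaving out each library moved the Foxa2 to Foxa3 difference between -1.31 and -1.002 and the Foxa1 to Foxa3 difference between -1.26 and -0.86. None of the 5 ratios passed 0.05 after adjustment.

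As shares of the summed FOXA reads per kb of exon, Foxa3 took 58.3, 69.5, 71.5 and 67.5% in ALAS1/2-KO replicates 1 to 4, against 50.3, 51.2 and 42.7% in WT replicates 1 to 3. Foxa2 took 25.0 ± 4.00% in ALAS1/2-KO and 39.7 ± 2.94% in WT, and Foxa1 took 8.26 ± 1.96% in ALAS1/2-KO and 12.3 ± 1.94% in WT (SD, n = 4 and n = 3). The shares sum to a whole, so a higher Foxa3 share is a lower share of the others. The summed level itself was 27.0 ± 1.91 CPM per kb in ALAS1/2-KO and 24.9 ± 4.38 CPM per kb in WT (exact permutation p = 0.4).

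**Figure D3:**
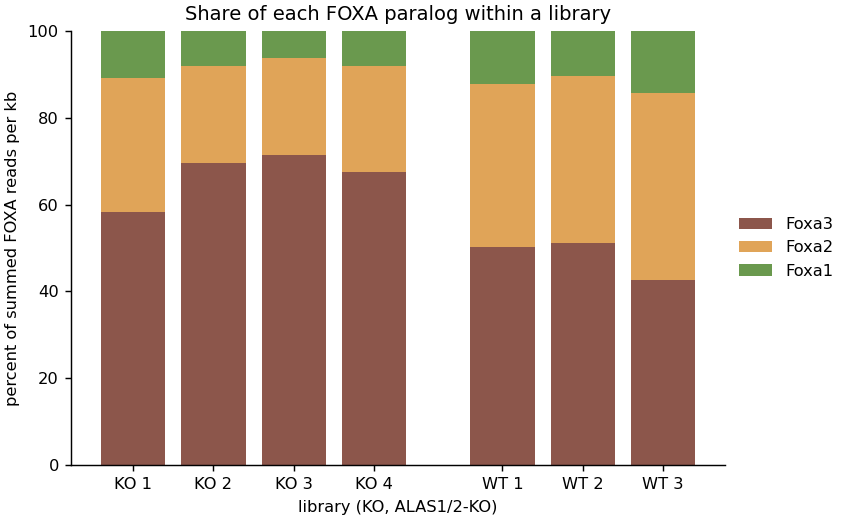
Share of Foxa1, Foxa2 and Foxa3 in their summed reads per kb of exon, in percent, for each of the 4 ALAS1/2-KO and the 3 WT libraries. Foxa3 takes 58.3 to 71.5% in ALAS1/2-KO and 42.7 to 51.2% in WT, and ALAS1/2-KO replicate 1 is the ALAS1/2-KO library nearest to WT.

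The FOXA promoters are shown because the paralogs' values differed in direction. The Foxa3 window (chr7:19023490-19023789, minus strand, GRCm38.p6, RefSeq) held none of the 6 motifs searched, and 69.0% of its bases were G or C. The Foxa1 window (chr12:57546062-57546361, minus strand) held the FOXA letters TGTTTAC as GTAAACA, 141 bases before the start, letters found in 3.65% of windows. The most upstream of 3 Foxa2 windows (chr2:148046920-148047219, minus strand) held the ONECUT letters as ATTGAT, 213 bases before the start. Another, at chr2:148045415-148045714, held the HNF1 letters as ATTAAC, 176 bases before the start. Capitals in the sequences mark these letters.
Foxa3 promoter: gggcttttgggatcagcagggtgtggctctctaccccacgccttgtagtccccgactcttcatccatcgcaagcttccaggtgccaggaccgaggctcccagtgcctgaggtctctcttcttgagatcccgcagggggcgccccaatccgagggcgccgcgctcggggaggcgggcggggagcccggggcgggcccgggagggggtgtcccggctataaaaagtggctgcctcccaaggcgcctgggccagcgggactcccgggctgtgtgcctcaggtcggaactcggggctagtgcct
Foxa1 promoter: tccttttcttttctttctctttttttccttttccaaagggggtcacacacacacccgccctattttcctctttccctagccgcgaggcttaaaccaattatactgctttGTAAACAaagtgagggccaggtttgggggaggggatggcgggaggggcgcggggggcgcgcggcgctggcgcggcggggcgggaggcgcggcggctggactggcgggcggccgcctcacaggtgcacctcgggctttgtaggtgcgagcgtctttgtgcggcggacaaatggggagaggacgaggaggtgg
Foxa2 upstream promoter: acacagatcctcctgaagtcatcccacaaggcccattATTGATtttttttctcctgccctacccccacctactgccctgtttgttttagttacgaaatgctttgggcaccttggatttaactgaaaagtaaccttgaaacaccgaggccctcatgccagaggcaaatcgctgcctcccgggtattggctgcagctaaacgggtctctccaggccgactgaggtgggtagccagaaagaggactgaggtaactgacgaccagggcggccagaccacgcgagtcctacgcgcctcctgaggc
Across all 12 windows found for 8 factors, FOXA letters were in 1, ONECUT letters in 2 and HNF1 letters in 2. Neither form of the C/EBP letters was in any, TTGCGCAA (0.183% of all windows) or the looser TTGCNNAA that contains it (10.8%). No match says only that these letters are not in these windows.

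The C/EBP factors overlapped between the groups. Cebpa (ENSMUSG00000034957, chromosome 7, 35119293 to 35121928, plus strand, mm10) drives glycogen, urea and gluconeogenic genes. It had 184, 184, 149 and 116 CPM in ALAS1/2-KO replicates 1 to 4, against 150, 144 and 115 CPM in WT replicates 1 to 3 (log2 fold change 0.20, SE 0.18, limma adjusted p = 0.54; exact permutation p = 0.343). Replicates 1 and 2 of ALAS1/2-KO lay above every WT library, and replicate 4 lay close to the lowest WT library.

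Cebpb (ENSMUSG00000056501, chromosome 2, 167688915 to 167690418, plus strand, mm10) is the family member induced by acute phase signals, fasting and liver regeneration. It had 103, 113, 105 and 128 CPM in ALAS1/2-KO replicates 1 to 4, against 122, 116 and 57.0 CPM in WT replicates 1 to 3. The ALAS1/2-KO libraries spread narrowly (112 ± 11.3 CPM), and WT replicate 3 was far below the other WT libraries (98.2 ± 35.8 CPM). The log2 fold change of 0.27 (SE 0.26, limma adjusted p = 0.562; exact permutation p = 0.6) turned to -0.08 without WT replicate 3. The log2 ratio of Cebpb to Cebpa averaged -0.47 ± 0.43 in ALAS1/2-KO and -0.54 ± 0.41 in WT (difference 0.07, exact permutation p = 0.857).

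Cebpb shares 312 bases (20.7% of its exon bases) with Tmem189 on the opposite strand. The library kit does not mark strand, so reads there cannot be assigned. Tmem189 was at 5.42 to 9.90 CPM in ALAS1/2-KO against 10.7 to 16.5 CPM in WT (limma adjusted p = 0.1), a small level beside that of Cebpb.

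The ONECUT paralogs were separated between the groups by their ratio more than by either gene alone. Onecut1, also called HNF6 (ENSMUSG00000043013, chromosome 9, 74861921 to 74891781, plus strand, mm10), regulates glucose and bile duct genes in the mouse. It had 34.1, 18.5, 11 and 15.9 CPM in ALAS1/2-KO replicates 1 to 4, against 7.62, 9.37 and 12.2 CPM in WT replicates 1 to 3. Of the ALAS1/2-KO libraries 3 lay above every WT library, and replicate 3 lay between WT replicates 2 and 3. The log2 fold change was 0.93 (SE 0.37, 95% interval 0.07 to 1.78), with a limma adjusted p of 0.183 and an exact permutation p of 0.0857. Without ALAS1/2-KO replicate 1 the log2 fold change was 0.63. Of its exon bases 52.8% (2171) also belong to Gm20649, a non-coding gene on the same strand that was not analysed here, so the split of reads between them is uncertain.

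Onecut2 (ENSMUSG00000045991, chromosome 18, 64340020 to 64400987, plus strand, mm10), whose product overlaps in DNA binding with ONECUT1, had 89.7, 75.4, 55.4 and 65.9 CPM in ALAS1/2-KO replicates 1 to 4, against 58.8, 86.7 and 84.5 CPM in WT replicates 1 to 3. The groups overlapped, with ALAS1/2-KO libraries at both ends (log2 fold change -0.10, SE 0.19, limma adjusted p = 0.791; exact permutation p = 0.686). The CPM of Onecut2 over that of Onecut1, without length correction, was 2.63, 4.06, 5.01 and 4.14 in ALAS1/2-KO replicates 1 to 4, against 7.66, 9.20 and 6.90 in WT replicates 1 to 3. Every ALAS1/2-KO library lay below every WT library. On the log2 scale the difference was -1.03 (exact permutation p = 0.0286; 0.0952 adjusted over the 5 ratios).

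**Figure D4:**
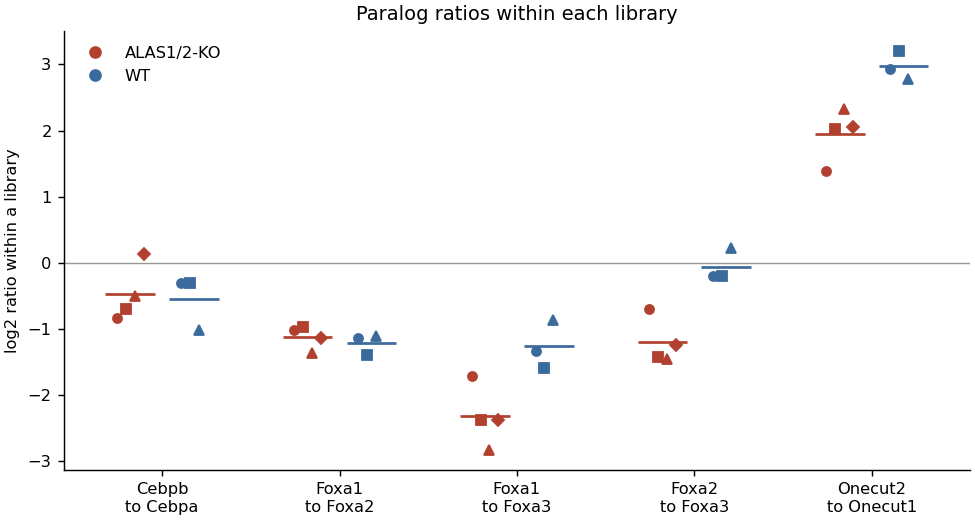
Log2 ratio of the CPM of paralogs within each library, for 5 ratios, ALAS1/2-KO left of WT; points are libraries and horizontal bars are group means. The groups do not overlap for Foxa1 to Foxa3, Foxa2 to Foxa3 and Onecut2 to Onecut1, and they overlap for Foxa1 to Foxa2 and Cebpb to Cebpa.

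Prox1 (ENSMUSG00000010175, chromosome 1, 190118035 to 190170714, minus strand, mm10) binds with HNF4A and represses part of its targets, among them bile acid synthesis genes in mouse and human cells. It is also a marker of lymphatic endothelium, so reads of such cells would add to it. It had 73.3, 73.5, 65.4 and 65.9 CPM in ALAS1/2-KO replicates 1 to 4, against 46.2, 55.6 and 69.3 CPM in WT replicates 1 to 3. WT replicate 3 lay within the ALAS1/2-KO range and the other WT libraries lay below it. Its log2 fold change was 0.30 (SE 0.14, 95% interval -0.02 to 0.62), with a limma adjusted p of 0.23 and an exact permutation p of 0.114. Of 5 other lymphatic endothelial markers 2 were in the table, Flt4 and Reln, with a sum of 12.7 to 56.1 CPM in ALAS1/2-KO and 58.4 to 86.0 CPM in WT. Reln is a stellate cell marker too, and the part of either cell type in the Prox1 value was not tested. Prox1os, its antisense gene, shares 1.59% of its exon bases and stood at 2.01 to 2.81 CPM in ALAS1/2-KO and 2.02 to 4.01 CPM in WT.

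Per kb of exon, which allows levels to be compared between genes, the order began alike in both groups: Hnf4a, Cebpb, Cebpa, then Foxa3. Hnf4a had 84.4 ± 12.5 CPM per kb in ALAS1/2-KO and 74.5 ± 11.1 CPM per kb in WT. The leading 3 overlapped as neighbours in both groups, and a gap separated Cebpa from Foxa3, which had 17.9 ± 0.905 CPM per kb in ALAS1/2-KO and 12 ± 2.56 CPM per kb in WT. Foxa3 lay clear of the next factor in ALAS1/2-KO (Prox1, 8.29 ± 0.534 CPM per kb) and overlapped the next one in WT (Foxa2, 9.89 ± 1.94 CPM per kb). Onecut1 stood seventh in ALAS1/2-KO at 4.83 ± 2.43 CPM per kb, overlapping Onecut2, and last in WT at 2.36 ± 0.559 CPM per kb, overlapping Foxa1. Foxa1 was last in ALAS1/2-KO at 2.25 ± 0.69 CPM per kb, against 3.04 ± 0.561 CPM per kb in WT (SD, n = 4 and n = 3 throughout).

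**Figure D5:**
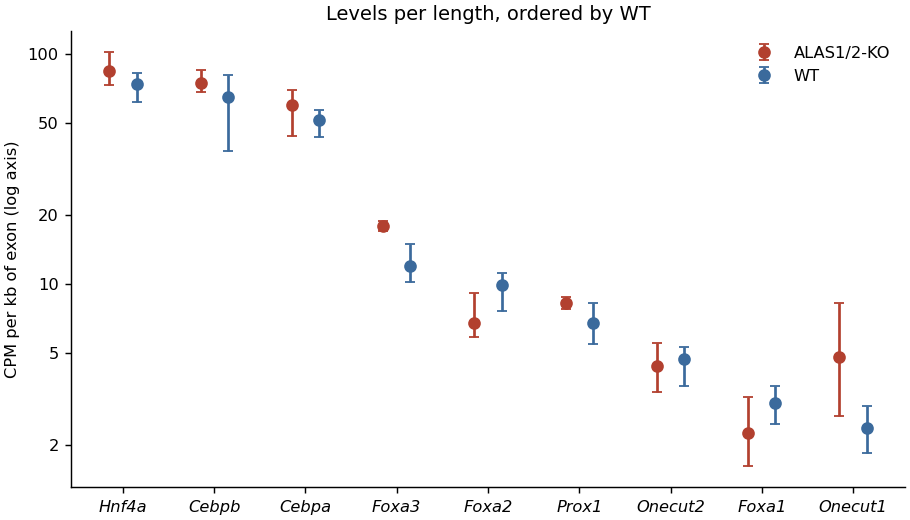
Level of each factor in CPM per kb of exon on a log axis, ALAS1/2-KO and WT; points are group means and bars run from the lowest to the highest of the 4 and the 3 libraries. The means of Hnf4a, Cebpb and Cebpa lie above 50 CPM per kb in both groups, and those of the other factors lie below 20.

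Factors that work with the members were next examined, over lists chosen by known function with the members left out. As with the members, earlier results of these data were known when the lists were chosen. Each list count stands beside 2.91% higher and 2.19% lower over all genes tested. Of 29 partner transcription factors tested, 3 rose and 2 fell, with a median log2 fold change of 0.03. Ppara, the fatty acid receptor that drives fat oxidation, averaged 34.9 ± 3.67 CPM in ALAS1/2-KO and 21.8 ± 2.97 CPM in WT (log2 fold change 0.68, limma adjusted p = 0.0269). Creb3l3, a membrane-bound fasting factor of liver, averaged 264 ± 30.1 CPM in ALAS1/2-KO and 164 ± 23.7 CPM in WT (0.69, adjusted p = 0.0325). Esrra, an orphan receptor of mitochondrial genes, also rose (0.57, adjusted p = 0.0342). Nr2f2, or COUP-TFII, averaged 16.3 ± 3.01 CPM in ALAS1/2-KO and 26.7 ± 3.72 CPM in WT (-0.72, adjusted p = 0.0446), and Nr2f6 fell by 0.53 (adjusted p = 0.0498); Nr2f6 was named after its value was seen. COUP-TF proteins compete with HNF4A for DNA sites. Nr2f2 is also expressed by endothelial and stellate cells, whose summed markers were at 88.3 to 382 and 44.4 to 214 CPM in ALAS1/2-KO, against 371 to 456 and 193 to 344 CPM in WT; their part in the Nr2f2 value was not tested. With a library left out, 0 to 5 of the list were called. Without WT replicate 2 the limma adjusted p missed 0.05 for Ppara (0.12), Creb3l3 (0.152), Esrra (0.153) and Nr2f2 (0.192), and without ALAS1/2-KO replicate 4 it missed for the same 4 genes (0.0658, 0.0779, 0.0533 and 0.0999). Other libraries mattered too, up to an adjusted p of 0.0591 for Ppara (without WT replicate 1), 0.074 for Creb3l3 (without WT replicate 3), 0.0823 for Esrra and 0.115 for Nr2f2 (both without WT replicate 3).

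Of 11 other C/EBP family genes and leucine-zipper partners, 1 fell and none rose. Nfil3, a repressor that competes with the DBP group, averaged 11.2 ± 1.83 CPM in ALAS1/2-KO and 18.7 ± 1.82 CPM in WT (log2 fold change -0.74, limma adjusted p = 0.0303; 0.0509 to 0.101 without any library other than ALAS1/2-KO replicate 1). Dbp, Tef and Hlf are clock-controlled activators of that group and were named after their values were seen. They were higher in all 4 ALAS1/2-KO libraries than in any WT library without passing the adjusted test. Groups did not overlap, in either direction, for 4 of the 11 genes and for 22.7% of all genes tested. Dbp averaged 65.0 CPM in ALAS1/2-KO and 17.2 CPM in WT (3.03, adjusted p = 0.14), Tef 101 CPM in ALAS1/2-KO and 38.3 CPM in WT (1.62, adjusted p = 0.0836), and Hlf 32.3 CPM in ALAS1/2-KO and 24.3 CPM in WT (0.41, adjusted p = 0.0729). The sources used here do not give the time of day at which cells were taken.

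Among 24 coregulators, 2 rose and none fell. Ppargc1b, a coactivator of ERR and PPAR receptors, averaged 7.98 ± 1.36 CPM in ALAS1/2-KO and 3.23 ± 0.855 CPM in WT (log2 fold change 1.30, limma adjusted p = 0.0197). Med1, the Mediator subunit that nuclear receptors contact, averaged 22.4 ± 2.71 CPM in ALAS1/2-KO and 14.9 ± 0.364 CPM in WT (0.58, adjusted p = 0.0303). With a library left out, 0 to 3 were called. Ppargc1b then missed without ALAS1/2-KO replicate 4 (0.0545) and WT replicates 2 (0.0919) and 3 (0.054), and Med1 without ALAS1/2-KO replicates 3 (0.0536) and 4 (0.0715) and any WT library (0.0646 to 0.136). Among 15 other forkhead genes none passed the limma adjusted test, and their median was 0.10. An unadjusted p under 0.05 was found for 5 of them, against 23.7% of all genes tested. The most abundant over all libraries were Foxq1, at 33.2 ± 7.78 CPM in ALAS1/2-KO and 44.4 ± 13.2 CPM in WT, and Foxo1, at 37.1 ± 4.73 CPM in ALAS1/2-KO and 36.3 ± 13.2 CPM in WT.

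Genes known as targets of the factors came next. Of 34 HNF4A targets, 8 rose and 2 fell, and 18 had groups that did not overlap, beside 2.91% higher, 2.19% lower and 22.7% without overlap over all genes tested. The median log2 fold change was 0.25, against -0.02 over all genes. The list was chosen with earlier results of these data known, so these counts and this median are no test of the set. Cyp8b1, the sterol hydroxylase that makes cholic acid, averaged 346 ± 62.7 CPM in ALAS1/2-KO and 77.5 ± 19.1 CPM in WT (log2 fold change 2.17, limma adjusted p = 0.00196). Pklr, the liver pyruvate kinase, averaged 342 ± 83.6 CPM in ALAS1/2-KO and 120 ± 15.3 CPM in WT (1.48, adjusted p = 0.00642). Slc10a1, the bile acid uptake carrier, averaged 586 ± 33.2 CPM in ALAS1/2-KO and 341 ± 30.1 CPM in WT (0.78, adjusted p = 0.0076), and Lipc, hepatic lipase, 194 ± 14.6 CPM in ALAS1/2-KO and 115 ± 6.52 CPM in WT (0.76, adjusted p = 0.00754). The 2 that fell were named after their values were seen. They were Apoh, a plasma phospholipid-binding protein (-0.74, adjusted p = 0.0257), and F11, a clotting factor (-0.64, adjusted p = 0.0436). F7 and Serpinc1, also named after their values were seen, were among those that rose (0.54, adjusted p = 0.0405, and 0.44, adjusted p = 0.0381). With a library left out, 3 to 10 of the list were called; Cyp8b1, Pklr and Lipc passed in each of those 7 fits, and Slc10a1 missed without WT replicate 2 (0.0533).

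Of 19 FOXA targets, 2 rose and 1 fell, beside 2.91% and 2.19% of all genes tested, with a median of 0.33. Their groups did not overlap for 9 of 19, against 22.7% of all genes tested. Slc10a1 is on this list too, and Slc2a2, the glucose carrier GLUT2, averaged 378 ± 19.4 CPM in ALAS1/2-KO and 182 ± 37.3 CPM in WT (log2 fold change 1.07, limma adjusted p = 0.00798). Alb, the albumin gene, is a target of FOXA and C/EBP factors and averaged 53409 ± 2537 CPM in ALAS1/2-KO and 97897 ± 3431 CPM in WT (-0.87, adjusted p = 0.00606); under quantile normalization its sign turned (0.28, adjusted p = 0.377). Of 26 C/EBP targets, 1 rose and 1 fell, with a median of -0.08. The one that rose was Gys2, liver glycogen synthase, at 173 ± 15.1 CPM in ALAS1/2-KO and 80.6 ± 29.5 CPM in WT (1.16, adjusted p = 0.0283), and it missed without WT replicate 2 (0.132) or 3 (0.053) and without ALAS1/2-KO replicate 2 (0.0622), 3 (0.0579) or 4 (0.0715). Of 12 ONECUT targets 1 rose (Slc2a2; median 0.07), and of 10 PROX1-linked genes 1 rose (Esrra; median 0.04).

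Genes that mark other states of the hepatocyte lineage were few in the table. Of 4 biliary and progenitor genes tested, 1 fell: Spp1, osteopontin, at 2.18 ± 1.02 CPM in ALAS1/2-KO and 13.9 ± 2.95 CPM in WT (log2 fold change -2.73, limma adjusted p = 0.0076). Spp1 is also 1 of the 2 cholangiocyte markers in the table, whose summed level was 2.72 to 5.35 CPM in ALAS1/2-KO and 12.1 to 21.1 CPM in WT. Most of the WT sum was Spp1 itself, so the sum largely repeats its fall. Values of the other marker, Sox9, overlapped, at 1.63 to 2.08 CPM in ALAS1/2-KO and 1.20 to 4.30 CPM in WT (limma adjusted p = 0.762). The part of such cells was not tested. Of 5 fetal hepatocyte genes 1 fell, the imprinted gene Mest, at 1.23 ± 0.476 CPM in ALAS1/2-KO and 4.49 ± 0.804 CPM in WT (-1.89, adjusted p = 0.0299). Spp1 missed without WT replicate 2 (0.0535), and Mest without ALAS1/2-KO replicate 2 (0.053) or 4 (0.0562) or any WT library (0.0664 to 0.131). None of 13 YAP and dedifferentiation genes passed the limma adjusted test, and 3 had an unadjusted p under 0.05, against 23.7% of all genes tested. The median was -0.46, with 0 of 13 values above 0, against a median of -0.02 and 5805 of 12105 values above 0 over all genes tested. Some of them, such as Vim, Zeb1, Zeb2, Axl and Tgfb1, are also expressed by stromal cells or macrophages. Summed stellate and endothelial markers were at 44.4 to 214 and 88.3 to 382 CPM in ALAS1/2-KO, against 193 to 344 and 371 to 456 CPM in WT. Those of Kupffer cells and macrophages were at 245 to 1566 CPM in ALAS1/2-KO, on both sides of the WT range of 961 to 1306 CPM. The part of such cells in this list was not tested. The most abundant genes of the list, Krt18 and Krt8, had log2 fold changes of -0.20 and -0.03, and of 0.13 and 0.31 when CPM was rescaled to listed reads. Over all 12 lists, with each gene counted once, 13 of 161 genes rose and 8 fell, and 53 had an unadjusted p under 0.05, beside 2.91%, 2.19% and 23.7% of all genes tested. The median was 0.01, against -0.02 over all genes.

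The study concerns small RNA silencing, so the members' 3′ UTRs were searched for sites of 11 abundant liver miRNAs. Each site was the complement of seed bases 2 to 8 followed by A. Sites of miR-122-5p, also planned, were not searched because the RefSeq miRNA set used did not hold it, so the counts do not cover it. Hnf4a, Foxa1, Foxa2, Foxa3 and Cebpb held no such site. Cebpa held 1 (miR-101a-3p), Onecut1 held 1 (miR-148a-3p), Prox1 held 4 in 5185 bases, and Onecut2 held 7 for 5 miRNAs in 14356 bases. The miRNA shared by Onecut1, Onecut2 and Prox1 was miR-148a-3p, whose sites are in 4.72% of 11242 mouse 3′ UTRs. Its RefSeq sequence is shown with the seed in capitals, and the sites of Onecut1 and Prox1 with the matching letters in capitals.
miR-148a-3p: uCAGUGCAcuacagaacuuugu
Onecut1 site: agtaagttcTGCACTGAgattc
Prox1 site: ccacagcttTGCACTGAggtgg
These factors had log2 fold changes of 0.93 (Onecut1), -0.10 (Onecut2) and 0.30 (Prox1), none past the limma adjusted test. Longer UTRs can hold more sites by length alone, and no miRNA was measured in these libraries.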

How the data were processed

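The authors deposited log2 CPM values for 7 libraries, in which counts were scaled per library and a small prior added. TruSeq version 2 libraries were made from 1 µg of Trizol-extracted total RNA, per the labels' protocols. Cutadapt and HISAT2 with mm10 are named in the submitters' processing notes; versions, read counter, strand setting and annotation were not given in the sources used here. Values taken off the log2 scale, minus a floor of 0.0676 CPM, were whole multiples of 1 step per library for 100% of values (within 0.01 reads), which gave the reads behind each value.

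Genes with at least 1 CPM in 3 libraries were fitted as deposited with limma 3.58.1 in R 4.3.3 (intensity trend, robust), two-sided, with Benjamini-Hochberg adjustment over 12105 genes; fold changes are ALAS1/2-KO over WT and, through the prior, understate low genes. The limma fit was tested on simulated counts with changes of known size, and the other steps were not. Single values were compared by exact two-sided permutation of group means over 35 regroupings in SciPy 1.17.1 (Python 3.11.15). Exon lengths and overlaps came from GENCODE M21 (11938 symbols matched) and sequences from RefSeq GRCm38.p6.

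Members and lists were chosen with earlier results of these data known, and lists share genes. Named were all members, up to 4 changed genes per list with the smallest p (otherwise the 2 most abundant), Alas1, Alas2, and the 3 genes most correlated with Hnf4a and with each changed member. Alternatives changed filter, pseudocount, scaling, test, replicate block and libraries.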

Additional observations from a re-analysis of the deposited data

Results flagged for a closer look

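The log2 CPM of Foxa2 in ALAS1/2-KO replicate 1 was 4.44, far above the other 3 libraries of its group: the gap to the nearest of them took a share of 0.892 of the group's whole range, above Dixon's 95% critical value for 4 samples. This was the only such value among 14 checked in the ALAS1/2-KO group (9 factors and 5 ratios), and chance marks about 1 in 20; the WT group of 3 was not checked. The same library was the highest of its group for 5 of 9 factors. A place at the end of a group was not particular to it: ALAS1/2-KO replicate 3 was the lowest of its group for 5 factors and WT replicate 1 for 6.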

How the results depend on the processing

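Over 11 other settings and 7 leave-one-out fits, Foxa3 kept its direction (log2 fold change 0.48 to 0.93; 0.50 to 0.77 with a library left out). Its limma adjusted p missed 0.05 when the scaling left out mitochondrial and the 20 most abundant genes (0.0750), without trend (0.0821) and with the replicate block (0.126). The log2 fold changes there were 0.54, 0.60 and 0.62, and later brackets in this paragraph hold log2 fold changes. CPM rescaled to listed reads, which raised the median of all genes to 0.32, also called Hnf4a (0.52), Cebpb (0.60), Prox1 (0.64) and Alas1 (1.14) and turned Onecut2 (0.24) and the uncalled Krt18 (0.13) and Krt8 (0.31). Library weights called Foxa1 (-0.63) and Foxa2 (-0.71; -0.70 without ALAS1/2-KO replicate 1, and -0.72 to -0.45 over all left-out libraries) and turned Foxo1 (-0.047). Members called numbered 4 with listed reads, 3 with weights, 0 without the abundant genes, without trend and with the block, and 0 to 2 with a library left out. All genes called numbered 2735, 306, 2001 and 72 with listed reads, without trend, with weights and with the block, and 100 to 802 with a library left out; list genes numbered 50, 10, 42 and 2, and 5 to 21. Higher calls were 57.1% of all calls, against 92.6% with listed reads and 42.3% without the abundant genes.

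Leaving out a library turned Cebpb (-0.085 without WT replicate 3, to 0.46), Onecut2 (-0.28, to 0.016 without ALAS1/2-KO replicate 3), Foxo1 (-0.25 without WT replicate 3, to 0.30), Krt8 (-0.20 to 0.15) and the ratios of Cebpb to Cebpa (-0.17 to 0.19) and Foxa1 to Foxa2 (-0.0045 to 0.17). Quantile normalization turned Alb (0.28). The Onecut2 to Onecut1 difference ran from -1.15 to -0.84 with a library left out, where the smallest exact p was 0.0667 to 0.1.

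Same-numbered libraries correlated at -0.03, 0.05 and 0.18 in their deviations, and not every library correlated best with its own number, so the numbers were not taken as pairs. With the replicate block, which drops ALAS1/2-KO replicate 4 from the contrast, Krt8 was at 0.15, the ratio of Cebpb to Cebpa at -0.14, and that of Onecut2 to Onecut1 at -1.06 (exact sign-flip p = 0.25, the smallest for 3 pairs). Each member had at least 5 CPM in every library; what depth, spread and the number of libraries each contributed to the few calls was not tested.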

Other observations

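Over the 7 libraries, the genes of at least 5 CPM (8788 searched) whose log2 CPM ran most like that of Hnf4a were Marchf6, Osbpl1a and Klf9 (Pearson r = 0.986, 0.975 and 0.971). For Foxa3 they were Gstm2-ps1, Rnf168 and Tob2 (r = 0.975, 0.971 and 0.968). These values are descriptions over few libraries that share a scaling.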
